A study of Rattus norvegicus with 4 samples.

Results

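The regions described here are m6A peaks at the 5′ end of genes that were listed both for untreated rat neurons and for neurons exposed to bisphenol A (BPA). A peak of the untreated list was a member when it overlapped a peak of the BPA list by at least 1 bp and its midpoint lay in the first 10% of the gene's locus, counted 5′ to 3′ by strand. The rule found 1256 of 8192 peaks of the untreated list, or 1256 of the 6005 that overlapped a BPA peak, and they lay in 1179 named genes. Both the overlap and the position chose the members, so neither is a result, and counts of members by position or by presence in both lists are given as description.

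Primary hippocampal neurons were sequenced as total RNA (input) and after pull-down with an antibody against m6A (IP). The series holds 4 samples in 4 groups of 1 library, named Ctrl_Input, Ctrl_IP, BPA_Input and BPA_IP. The Ctrl cultures were untreated, the BPA cultures received 1 mM BPA for 48 h from day 12 in vitro, and the end is labelled day 14 for BPA_IP and day 13 for BPA_Input. All cultures received the mitotic inhibitor Ara-C on day 7; strain, age, sex and the number of animals are not given, and neither is whether an input and its IP came from 1 culture. Without replicates no difference between the libraries was tested, and every interval covers read counting only.

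The inputs held 9837064 (Ctrl) and 9774929 (BPA) deposited counts over 22714 genes, and the BPA list held 8183 peaks. All 11 neuronal markers were present, with FPKM values from 27.3 to 269 in Ctrl_Input and from 33.4 to 317 in BPA_Input. All 6 astrocyte markers were present too, and their summed FPKM (6694 and 6168) was above that of the neuronal markers (1525 and 1656), so the RNA was not from neurons alone. Microglial markers summed to 31.7 and 33.8 FPKM, oligodendrocyte lineage markers to 168 and 174, and endothelial and mural markers to 6.83 and 6.53; 1 marker of each of the last 2 lists was at 0 in Ctrl_Input.

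N6-methyladenosine (m6A) is written on mRNA by the METTL3-METTL14 complex, mostly where an adenosine lies within a short consensus around GAC, and is read by proteins of the YTH family. In mammalian mRNA it is known to be densest around the stop codon and in long internal exons, with a smaller set of sites near the 5′ end. The first transcribed base, when it is adenosine, can carry a related mark, m6Am, written by PCIF1, and antibodies against m6A bind m6Am as well. A peak at the start of a transcript can therefore hold either mark, and pull-down of fragments does not tell them apart.

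The region around the annotated start is printed for 12 of the genes whose peaks are described below. The Cdk11b peak was centred 924 bp inside its locus, beyond the bases printed. The first 6 are among the 10 named for the highest peak scores, and the last 6 are among the 12 named for the highest and lowest ratios between the lists at scores of at least 20. Each line runs from 50 bases before the start to base 30 of the transcript, from RefSeq windows on GRCr8, 5′ to 3′. The build of the deposited peaks is not given in the sources used here, so these coordinates are not those of the peaks, and whether the start used in the deposited files is the RefSeq start was not tested. The first capital is the first transcribed base, and a later run of capitals is GGAC, the core of the m6A consensus, wherever it occurs from that base on.
Ubqln1 (chr17:6444390-6444469, plus strand): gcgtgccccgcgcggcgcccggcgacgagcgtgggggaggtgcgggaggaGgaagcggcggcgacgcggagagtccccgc
Bccip (chr1:197942485-197942564, plus strand): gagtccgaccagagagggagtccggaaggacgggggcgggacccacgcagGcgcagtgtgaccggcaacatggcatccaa
Ube2k (chr14:43072185-43072264, minus strand): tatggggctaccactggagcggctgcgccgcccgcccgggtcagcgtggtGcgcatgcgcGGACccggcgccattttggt
Dhx36 (chr2:149044162-149044241, minus strand): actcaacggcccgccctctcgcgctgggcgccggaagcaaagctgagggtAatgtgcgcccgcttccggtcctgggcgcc
Tia1 (chr4:120410223-120410302, plus strand): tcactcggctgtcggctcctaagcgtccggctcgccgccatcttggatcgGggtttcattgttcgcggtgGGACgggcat
Arglu1 (chr16:87455063-87455142, plus strand): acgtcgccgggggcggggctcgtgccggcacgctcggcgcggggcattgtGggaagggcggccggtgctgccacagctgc
Oraov1 (chr1:209503483-209503562, plus strand): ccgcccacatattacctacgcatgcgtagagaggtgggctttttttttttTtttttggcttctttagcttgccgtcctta
Stx6 (chr13:69882597-69882676, plus strand): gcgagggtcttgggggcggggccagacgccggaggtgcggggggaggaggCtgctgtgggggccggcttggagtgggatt
Ppp2ca (chr10:36858987-36859066, plus strand): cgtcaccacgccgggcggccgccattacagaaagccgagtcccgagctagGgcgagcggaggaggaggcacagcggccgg
Rbm5 (chr8:117327677-117327756, minus strand): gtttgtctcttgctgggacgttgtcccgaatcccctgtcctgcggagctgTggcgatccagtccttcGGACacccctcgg
Pnisr (chr5:40192685-40192764, plus strand): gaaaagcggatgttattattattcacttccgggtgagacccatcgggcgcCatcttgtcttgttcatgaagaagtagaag
Cdk11b (chr5:171495102-171495181, plus strand): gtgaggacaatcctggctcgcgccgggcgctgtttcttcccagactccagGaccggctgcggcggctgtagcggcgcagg

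Ube2k, Tia1 and Rbm5 have a GGAC among these transcribed bases, beginning at base 11, 21 and 18, and Dhx36 alone of the 12 begins with adenosine. The windows of Eif3j, Fam32a, Map2k1, Snrnp70, Ift122, Narf, Tmtc2 and Zfp704, named by the same rules, are not printed. They hold no GGAC from the start to base 30, so the 12 overstate its share among the named genes. Tmtc2 also begins with adenosine. Windows were found for 954 of the 1179 host genes (80.9%), by NCBI gene number, symbol or Ensembl number. Of these, 21.8% had GGAC within the first 50 transcribed bases, against 18.9% of all 27457 genes with a window, and the reverse complement GTCC was in 17.2% and 17.5%. An adenosine stood at the annotated start in 20.2% of host genes and in 29.8% of all genes, and in 10.7% and 12.5% it followed a C, the pair CA. The TATA box TATAAA, searched on the sense strand in the 250 bases before the start, was in 2.41% of host genes and 8.38% of all genes. The windows of host genes were rich in G and C, with a median of 63.7% against 52.3%, and held a median of 25 CG pairs against 7. The table of all genes includes many that these cultures do not express, so nothing particular to start peaks is read from these contrasts. Expressed genes had adenosine at the start in 21.3%, TATAAA in 3.85%, GGAC in 20.9%, a median of 61.3% G and C and 21 CG pairs. Genes whose shared peaks all lay elsewhere had 20.2%, 3.45%, 20.5%, 62.0% and 22 for the same measures. As a check of host genes against either set these values are void, because 77.6% of each had a window, under the 80% required, and they are given as description.

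Most members sat close to the start of their locus. The midpoint lay a median of 124 bp from the locus start (interquartile range 68 to 302 bp), although the loci had a median length of 33744 bp. Of the 1256 members, 510 were centred within 100 bp (40.6%), 1014 within 500 bp (80.7%) and 60 lay more than 5000 bp inside (4.78%). In the quartile of shared peaks with the shortest loci the median distance was 112 bp, and 90.4% of members lay within 500 bp. In the quartile with the longest loci the median was 159 bp, and 70.1% lay within 500 bp. The upper quartile of distance was 203 bp in the former and 1240.5 bp in the latter. The first 10% of a longer locus spans more bp, so the rule itself allows larger distances there. Nothing is read from the difference between these quartiles. The last 2 peaks inside the 10% mark were in Rngtt, the mRNA capping enzyme (9.992% of the locus, fold enrichment 6.58 in Ctrl_IP and 5.90 in BPA_IP), and RGD1304704 (9.97%, 7.96 and 14.7). The first 2 outside it were in Kmt2d (10.01%, 7.92 and 6.23) and Nr2c2 (10.05%, 3.71 and 4.86).

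The 5′ edge of the peak was exactly the locus start in 798 members (63.5%), and 81 began before it. Edges on the locus end were rarer among shared peaks of the last 10% of the locus (109 of 636, 17.1%). In 1184 members (94.3%) both lists gave the same start and end, as they did in 95.1% of all shared peaks and 96.8% of interior ones. The 5′ edge thus lay on the annotated start in most members, and a length (median 178 bp, 3 to 2211 bp) may in part be a property of the annotation. Members with the edge on the locus start had median fold enrichments of 7.25 (Ctrl_IP) and 7.62 (BPA_IP), and the other 458 had 6.58 and 7.18. The locus of 123 members is also given for another gene, and its start need not be the start of the gene named.

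**Figure D1:**
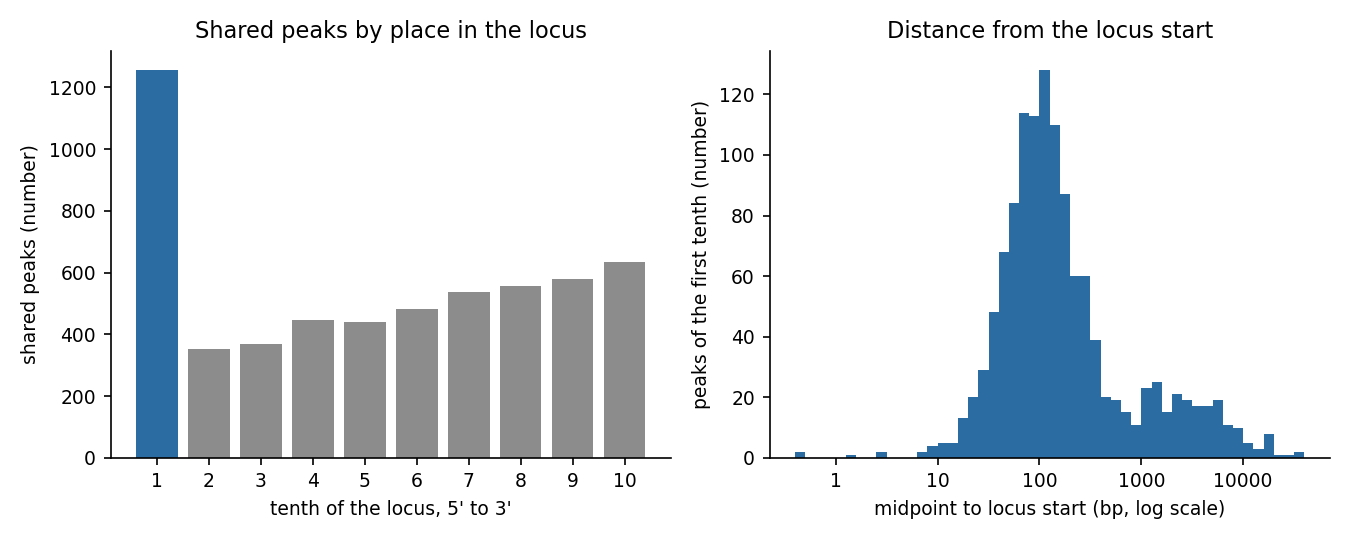
Left, number of shared peaks in each 10% of the locus from 5′ to 3′ (first 10% in blue, 1256 peaks); right, distance in bp on a log scale from the locus start to the midpoint of the peaks of the first 10%. The first 10% holds 22.2% of the 5652 shared peaks placed on a locus, and most of its peaks lie within 500 bp of the start.

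By the same placing, the next 10% of the locus held 352 shared peaks, the fewest of all bins, and the last 10% held 636, as the plot of peaks by place in the locus shows. Of all Ctrl_IP peaks in the first 10%, 1256 of 1636 (76.8%) overlapped a BPA peak, and the other bins gave 67.9% to 76.2%. These counts describe the rule and are not tested.

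Enrichment at the start was about that of peaks elsewhere in the locus. For the members, the enrichment ratio that the authors deposited (IP to input) had a median of 7.01 in Ctrl_IP (interquartile range 5.26 to 10.2) and 7.42 in BPA_IP (5.65 to 11.03). Shared interior peaks had 6.63 and 6.995, and shared peaks of the last 10% had 6.60 and 7.08. The peak score, which is -10 × log10 of the caller's p-value, had a median of 56.0 in Ctrl_IP and 69.6 in BPA_IP for members, against 68.7 and 68.7 for interior peaks. In Ctrl_IP 254 members (20.2%) had a score under 13, that is a p above about 0.05, as did 19.3% of interior peaks. Within the members, those centred 100 to 200 bp inside had a median fold enrichment of 7.34 in Ctrl_IP, and those more than 5000 bp inside had 5.64. The fall was not steady with distance. Members centred under 50 bp had 6.57, those at 50 to 100 bp had 7.665 and those at 500 to 1000 bp had 6.96.

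Host genes of start peaks had higher input levels than genes with a shared peak elsewhere only. Median FPKM was 24.6 in Ctrl_Input and 24.4 in BPA_Input for the 1147 host genes averaging 10 counts or more, and 15.7 and 15.4 for 1764 genes whose shared peaks all lay elsewhere. The share of genes with a start peak went from 1.54% at 1 to 3 FPKM to 4.90% at 3 to 10, 11.03% at 10 to 30 and 15.4% at 30 to 100, and was 11.9% at 100 FPKM or more. Among genes with any shared peak, those with one at the start made up 23.1% at 1 to 3 FPKM and 58.0% at 100 or more. Peak calling needs reads, and the part of depth in this trend was not tested.

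**Figure D2:**
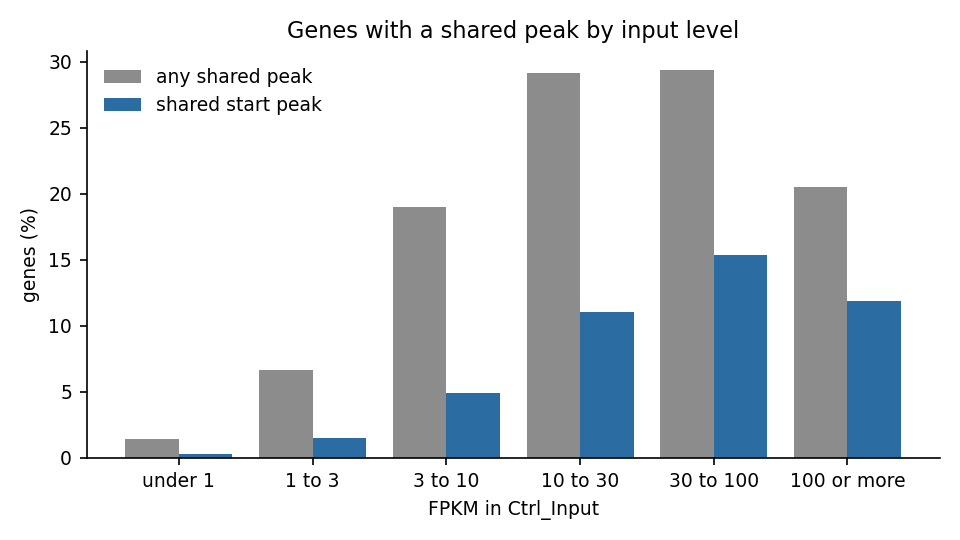
Percent of genes with any shared peak (grey) and with a shared start peak (blue) by FPKM in Ctrl_Input, over all 22714 genes. The start peaks go from 0.288% of genes under 1 FPKM to 15.4% at 30 to 100 FPKM and 11.9% above.

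Of the 1179 host genes, 633 (53.7%) had no shared peak besides the one at the start, against 59.1% with a single shared peak among all 3047 genes with any. Genes with an interior peak had no other shared peak in 45.0% of cases, and genes with a peak in the last 10% in 42.5%. Of the host genes, 481 (40.8%) had an interior shared peak and 95 (8.06%) had one in the last 10% of the locus. Genes with an interior peak had a peak in the last 10% in 11.4% of cases. In the 517 genes with a start peak and a shared peak elsewhere, the start peak had the higher fold enrichment in 254 (49.1%) in Ctrl_IP and in 261 (50.5%) in BPA_IP, and the order was alike in both lists in 432 (83.6%). Single start peaks were the rule: 1110 genes had 1 member, 61 had 2 and 8 had 3.

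Drosha, the nuclease that cuts primary microRNA transcripts, is one of the 8 genes with 3 members. Its peaks 416, 3531 and 8598 bp from the locus start had fold enrichments of 5.21, 9.31 and 4.69 in Ctrl_IP and of 6.28, 9.34 and 4.71 in BPA_IP, so that the order was the same in both lists. Dars, the aspartyl-tRNA synthetase, had peaks at 158, 2038 and 3387 bp with 9.32, 6.08 and 5.31 in Ctrl_IP and 7.38, 8.33 and 8.52 in BPA_IP, an order turned around between the libraries. Aatf, a nucleolar protein of ribosome assembly, was strongest 2879 bp from the start (10.2 and 11.7) and weaker at 1304.5 bp (3.90 and 6.19) and 111.5 bp (3.91 and 3.74).

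The start peaks with the highest scores in Ctrl_IP were strong in both libraries. Scores reached a ceiling near 3100, at which 29 members stood in both lists, so that the fold enrichment orders them better. By score and then fold enrichment, in genes with a proper symbol and an FPKM of at least 1, the first was Ubqln1, a carrier of ubiquitinated proteins to the proteasome, with a fold enrichment of 23.7 in Ctrl_IP and 27.7 in BPA_IP. Bccip, a partner of BRCA2, had the largest fold enrichments of these 10, 88.6 and 117. Ube2k, a ubiquitin-conjugating enzyme, had 65.8 and 56.0, and Eif3j, a subunit of initiation factor eIF3, had 64.3 and 63.7.

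The G-quadruplex helicase Dhx36 had 63.6 in Ctrl_IP and 50.7 in BPA_IP, the stress granule protein Tia1 had 60.1 and 65.7, and the splicing regulator Arglu1 had 54.7 and 60.3. Fam32a had 56.4 and 63.6. Gap43, the growth cone protein, had 52.4 and 62.8 in a peak that began at the locus start, on chromosome 11 from 62777623 to 62777868 in the coordinates of the files. Map2k1, the kinase MEK1 of the MAP kinase cascade, had 45.5 and 38.0. None of these 10 differed by 2-fold between the lists.

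The share of expressed genes with a start peak ranged widely over the gene groups, which were defined by symbol patterns and were not tested. Expressed genes, taken as those reaching 1 FPKM in each input, numbered 12340, of which 1148 (9.30%) carried one. RNA processing stood at 42 of 209 (20.1%), synaptic proteins at 22 of 126 (17.5%), signalling kinases and phosphatases at 46 of 314 (14.6%) and chromatin regulators at 21 of 160 (13.1%). Zinc finger proteins stood at 13 of 284 (4.58%), solute carriers at 12 of 213 (5.63%), ion channels and neurotransmitter receptors at 10 of 167 (5.99%) and ribosome and translation factors at 17 of 235 (7.23%). Median input levels ranged from 8.05 FPKM for zinc finger proteins to 41.1 for ribosome and translation factors, with 14.6 over all expressed genes, and their part in these shares was not tested. Among genes with any shared peak the order was another. There the start share was 39.6% over all expressed genes, 44.7% for RNA processing, 46.8% for synaptic proteins, 45.1% for kinases and phosphatases and 28.0% for chromatin regulators. Solute carriers (50%) and zinc finger proteins (44.8%), low by the first measure, lay above the overall share by this one, and ribosome and translation factors (30.4%) and channels and receptors (32.3%) lay below it by both.

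**Figure D3:**
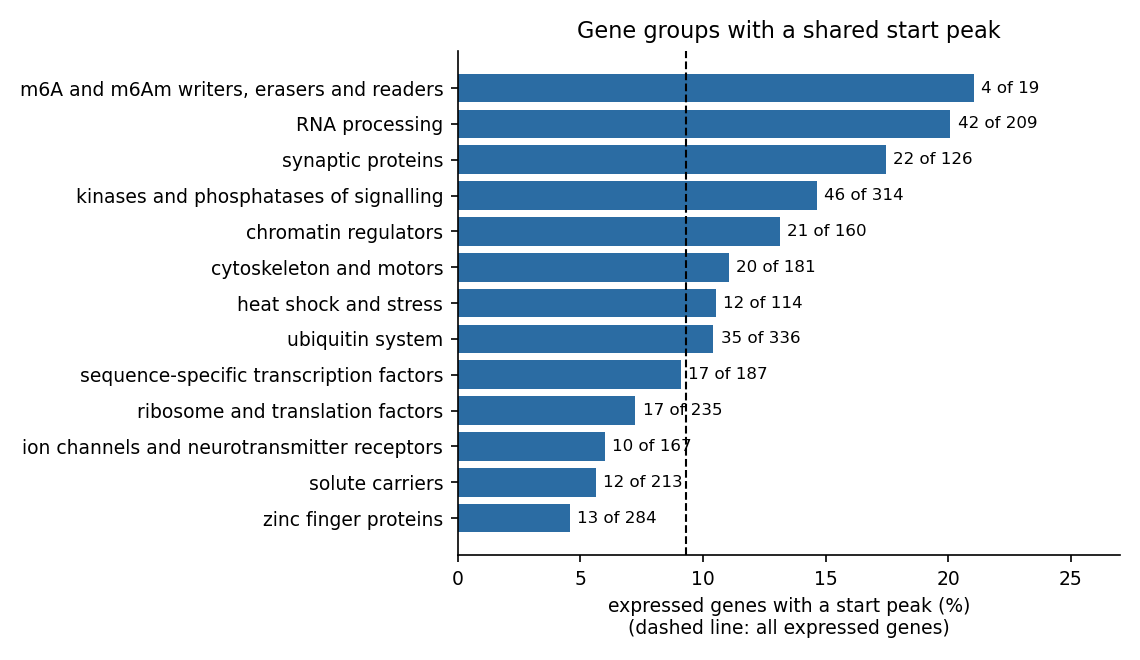
Percent of the expressed genes of each group that had a shared start peak, with counts at the bar ends; the dashed line is the share over all expressed genes, 9.30%. The m6A group (4 of 19) and RNA processing (42 of 209) lie highest and zinc finger proteins (13 of 284) lowest.

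A few genes of the m6A machinery had start peaks. Of 19 expressed writers, erasers and readers, 4 (21.1%) had one, where 9.30% of all expressed genes did. Among genes with any shared peak it was 4 of 6, against 39.6% over all expressed genes. Nothing is read from so few genes. The 4 were the readers Ythdf1, Ythdf3 and Ythdc1 and the writer subunit Mettl14. Ythdc1, the nuclear reader, had a fold enrichment of 7.87 in Ctrl_IP and 14.2 in BPA_IP (log2 ratio 0.85). The cytoplasmic readers Ythdf1 (5.76 and 7.93) and Ythdf3 (7.20 and 7.61) were closer. Mettl14 had 3.82 and 4.04, with scores of 7.19 and 4.46, among the weakest members. All 4 values were higher in BPA_IP, and none was 2-fold apart. Of all 1256 members 791 (63.0%) were higher in BPA_IP, as were 3584 of all 6005 shared peaks (59.7%).

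Among the other RNA processing genes, the ribonucleoproteins Hnrnpul2 (20.9 in Ctrl_IP and 22.9 in BPA_IP) and Hnrnpll (38.4 and 42.0) had the highest scores after Dhx36. The highest score of the synaptic group was that of Pclo, the active zone scaffold piccolo (18.4 and 19.2). Its 22 members had a median of 7.77 in Ctrl_IP and 7.58 in BPA_IP. Neuronal marker genes were hosts as well. Slc17a7, the vesicular glutamate transporter VGLUT1, had 13.2 and 16.4, the dendrite protein Map2 had 9.24 and 10.8, and Prox1, a transcription factor of granule neurons, had 13.9 and 15.9. Gad1, which makes GABA, had 10.5 and 6.07 in a peak 1621 bp inside the locus.

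Syt1, the calcium sensor of vesicle release (7.77 and 8.67), and Rbfox3, the nuclear antigen NeuN (4.05 and 4.35), completed the 6 of 11 neuronal markers with a start peak. None of the 6 astrocyte, 7 oligodendrocyte, 6 microglial and 5 endothelial and mural markers had one. Over all genes, 15.4% at 30 to 100 FPKM and 11.9% at 100 or more in Ctrl_Input had a start peak. The neuronal markers had a median of 156 FPKM, so 6 of 11 is above these shares, in a short list. The astrocyte markers had a median of 698 FPKM, so 0 of 6 is near the share at 100 or more. Medians were 12.8, 2.70 and 0.223 FPKM for oligodendrocyte lineage, microglial, and endothelial and mural markers. Over all genes, 11.03% at 10 to 30 FPKM, 1.54% at 1 to 3 and 0.288% under 1 had one. A difference between cell types was not tested.

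The remaining groups each held a few strong peaks. The ubiquitin group (35 of 336 genes) had Trim44 (30.8 in Ctrl_IP and 31.3 in BPA_IP) and Rnf10 (13.2 and 15.2) after Ube2k. Chromatin regulators were led by the bromodomain proteins Brd7 (24.6 and 25.5) and Brd9 (21.3 and 22.1) and by Arid1a of the SWI/SNF remodeller (16.3 and 19.7). Transcription factors (17 of 187 genes) were led by Rfxap (17.4 and 21.0), the nuclear receptor Nr2f2 (15.0 and 16.7) and Nfix (17.5 and 15.7). The zinc finger proteins Zfp91 (15.3 and 17.4), Zfp622 (11.3 and 9.37) and Zbtb10 (12.9 and 11.8) were within the same range.

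Translation genes with strong start peaks were, besides Eif3j, the initiation factor Eif5b (36.4 and 34.5) and the ribosomal protein gene Rpl35 (17.7 and 20.2). The cytoskeleton and motor group (20 of 181 genes) was led by Dync1i2, a dynein intermediate chain (15.2 and 23.3), Dctn2 of dynactin (13.5 and 19.4) and Map2. In the heat shock and stress group (12 of 114 genes) the HSP40 proteins Dnaja4 (24.6 and 32.8), Dnajb12 (11.01 and 11.03) and Dnajc21 (8.82 and 7.28) had the highest scores.

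Channel members had a median of 5.70 in Ctrl_IP and solute carrier members 8.14, against 7.01 over all members. The potassium channel Kcnn3 had 5.70 in Ctrl_IP and 8.41 in BPA_IP, the calcium channel subunit Cacnb1 had 9.09 and 15.97, and the sodium channel Scn7a had 8.33 and 5.08, the last 2 apart by 0.81 and -0.71 on the log2 scale. The GABA transporter Slc6a11 (18.8 and 16.8) and Slc4a1ap (15.8 and 19.1) led the solute carrier group with Slc17a7. Slc4a1ap is described as an adaptor protein of a solute carrier and is in the group by its symbol. Kinases and phosphatases were led by Map2k1, Ppp2ca and Cdk8, a kinase of the Mediator complex (35.3 and 28.2).

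Between the libraries, enrichment at the start was less than 2-fold apart for nearly all members, all of which had to be listed in both. At least 1.5-fold higher in BPA_IP were 123 members, and at least 1.5-fold lower were 45. The shares of all shared peaks at 1.5-fold were not counted, so nothing is read from these 2 counts. On the log2 scale of BPA_IP over Ctrl_IP the members had a median of 0.12 (interquartile range -0.11 to 0.35), against 0.08 over all 6005 shared peaks. Fold enrichments of the lists correlated over the 1256 members (Pearson's r 0.889 on the log2 scale, Spearman's rho 0.837), as a description across peaks that share their libraries and background. At least 2-fold higher in BPA_IP were 10 members (0.796%), where 1.28% of all shared peaks were, and at least 2-fold lower were 5 (0.398%), where 0.516% were. Centred on the median of all shared peaks, 7 were higher and 7 lower, so the counts by direction depend on whether a common shift is removed. With 1 library per group, a common shift from scaling and one from BPA cannot be told apart. Because the rule required a peak in both lists, nothing is read from these shares. The width holding the middle 68% of these ratios, taken to each side, was 0.32 for scores under 13, 0.35 at 30 to 100, 0.36 at 100 to 300 and 0.29 for scores of 1000 or more, with no steady order by score.

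**Figure D4:**
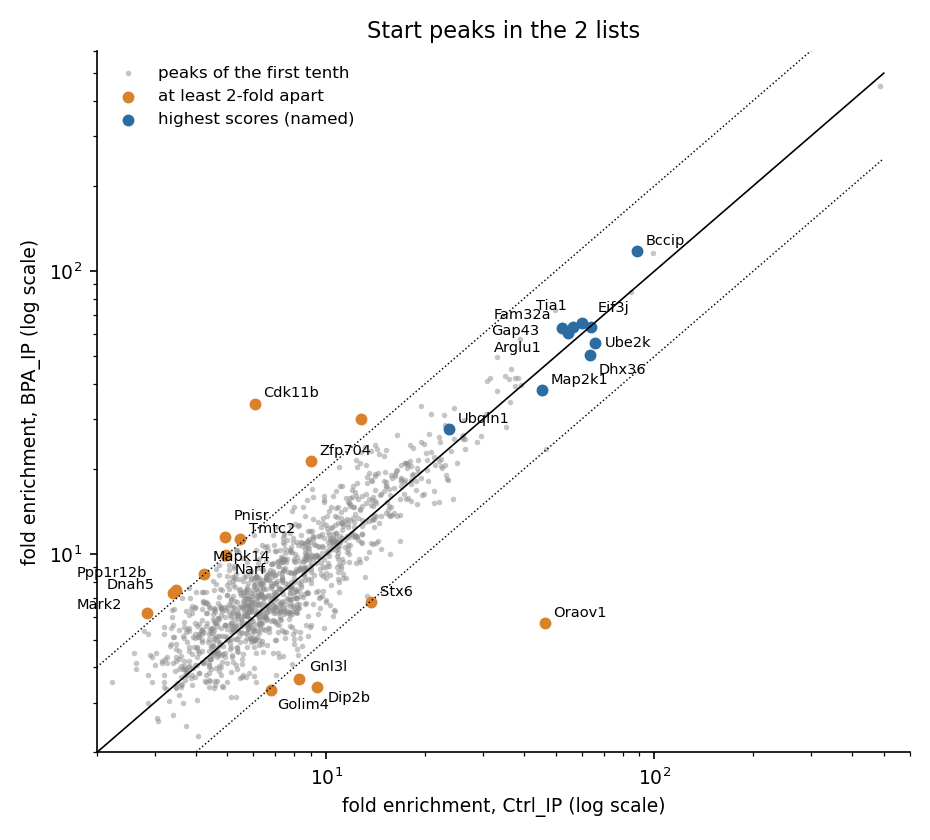
The authors' fold enrichment of each of the 1256 start peaks in Ctrl_IP (horizontal) and BPA_IP (vertical), both on log scales; the solid line is equality and the dotted lines are 2-fold. The 15 peaks at least 2-fold apart are in orange, with Cdk11b above and Oraov1 below the others, and the 10 highest scores are in blue.

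Cdk11b, a cyclin-dependent kinase of splicing and transcription, stood furthest apart among the higher peaks. Its peak 924 bp inside the locus, on chromosome 5 from 176543507 to 176543682, had a fold enrichment of 6.08 in Ctrl_IP and 34.1 in BPA_IP, 5.61-fold higher, with scores of 251 and 3100. A Ctrl_IP peak of the same gene 87.5 bp from the start (24.1, score 3100) had no counterpart in BPA_IP, and the next one at 1836 bp had 5.37 and 7.87. Of these 3 peaks the strongest was thus the first in Ctrl_IP and the second in BPA_IP. Both lists also gave Cdk11b the same 5 peaks before the start of this locus, among them one from 176533204 to 176533342 (46.3 and 47.2), so the start of the tabled locus need not be the 5′ end of the gene. Input counts of Cdk11b were 391 and 430, a ratio of 1.10 (95% exact binomial interval 0.957 to 1.26).

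Among the other higher peaks, Zfp704, a zinc finger protein, had 8.99 in Ctrl_IP and 21.3 in BPA_IP (log2 ratio 1.24, scores 125 and 539). Pnisr had 4.92 and 11.5 (1.23), while its peak 24518 bp from the start had 18.4 and 19.2.

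Mark2, a kinase of microtubule proteins, had 2.85 in Ctrl_IP and 6.2 in BPA_IP, Ppp1r12b of myosin phosphatase had 3.49 and 7.49, and Mapk14, the kinase p38 alpha, had 4.25 and 8.53. The axonemal dynein Dnah5 (3.42 and 7.28), Tmtc2 (5.47 and 11.3) and Narf (4.95 and 9.97) were also among the 10. Ctrl_IP scores were under 13 for Mark2 (5.85), Mapk14 (8.23) and Dnah5 (3.29). In Narf the second peak, 1360 bp from the start, differed by a like amount (4.88 and 9.60). Of the 47 members in the kinase and phosphatase group, 4 were 2-fold higher (Cdk11b, Mark2, Ppp1r12b and Mapk14), where 0.796% of all members were, and the median log2 ratio was 0.0032. Nothing is read from this count, since Ctrl_IP scores were under 13 for Mark2 and Mapk14 and 17.5 for Ppp1r12b.

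Oraov1 stood furthest apart in the other direction. Its peak at the locus start, on chromosome 1 from 224945381 to 224945806, had a fold enrichment of 46.4 in Ctrl_IP and 5.72 in BPA_IP, 8.12-fold lower, with scores of 2001 and 47.9. The BPA_IP peak ended 23 bp earlier, and BPA_IP listed a further peak 1367 bp from the start (5.92) that Ctrl_IP did not. Input counts were 183 and 186. Dip2b had 9.37 and 3.40 with a BPA_IP score of 3.15, and Golim4, a Golgi membrane protein, had 6.77 and 3.31 with a BPA_IP score of 3.33, so that both peaks were at the lower limit of the BPA list.

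Gnl3l, a nucleolar GTPase, had 8.26 in Ctrl_IP and 3.63 in BPA_IP in a peak 2577 bp inside the locus, and Stx6, a SNARE of the trans-Golgi network, had 13.7 and 6.80. Just short of 2-fold were Ppp2ca, the catalytic subunit of phosphatase PP2A (46.9 and 23.6, log2 ratio -0.99), the splicing factor Rbm5 (13.3 and 7.15), Snrnp70 of the U1 particle (9.84 and 5.50) and the ciliary transport protein Ift122 (8.41 and 4.74). The Ppp2ca score was higher in BPA_IP (2686) than in Ctrl_IP (2323), against the direction of its fold enrichment. Golim4 had 10 further shared peaks, and those at 74247 and 81917 bp had 26.3 and 22.6 in Ctrl_IP and 27.4 and 18.9 in BPA_IP.

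**Figure D5:**
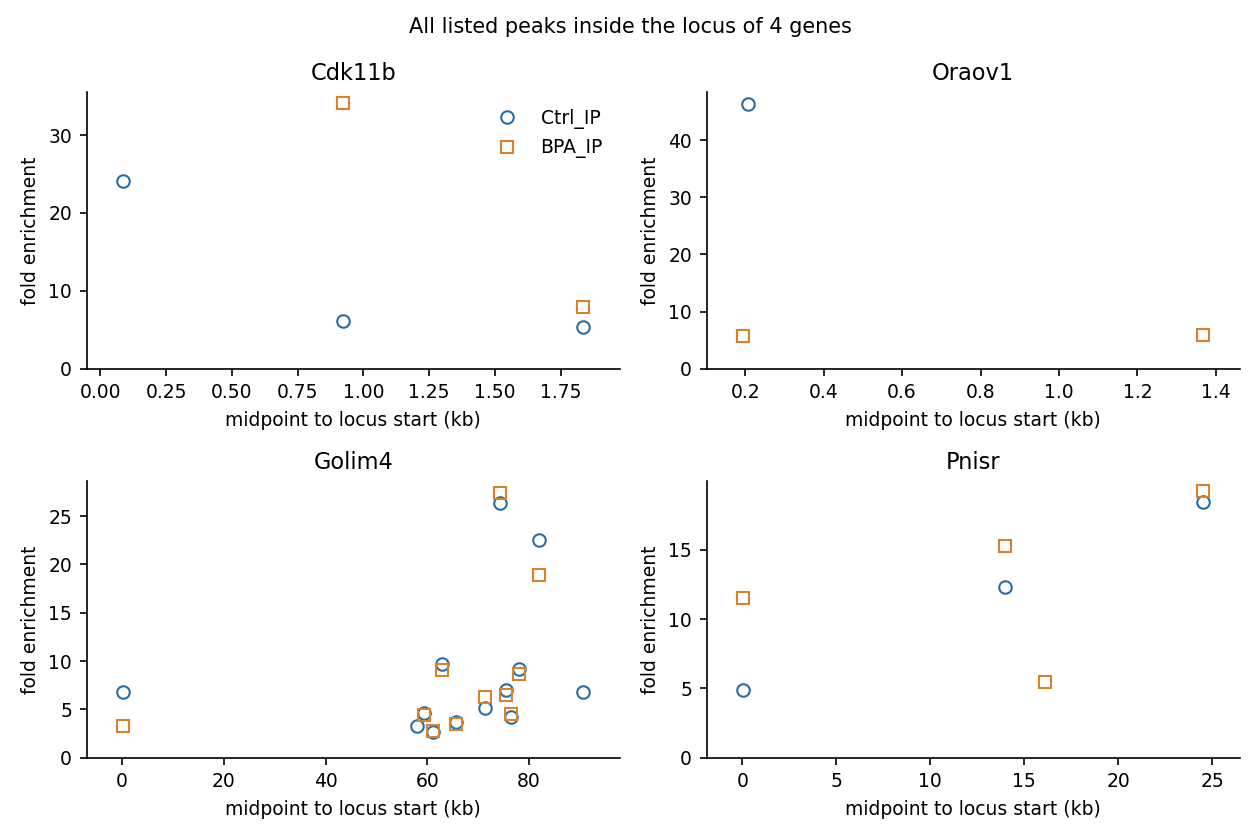
Fold enrichment of every listed peak inside the locus of Cdk11b, Oraov1, Golim4 and Pnisr by distance of its midpoint from the locus start in kb, for Ctrl_IP (blue circles) and BPA_IP (orange squares). In Golim4 and Pnisr the libraries lie apart at the start (6.77 and 3.31, 4.92 and 11.5) and close together at the strongest peak further inside.

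Levels of the host genes were nearly the same in both inputs. Of 1182 host rows, 1147 averaged 10 counts or more, and their median log2 ratio of BPA_Input over Ctrl_Input was -0.0049, against 0.0019 over all 13006 genes at that mean. At least 2-fold higher was 1 host gene (0.0872%), where 1.04% of all genes were, and at least 2-fold lower were 5 (0.436%), where 0.984% were. Host genes were more deeply covered, with a median of 631 counts against 275, and the part of depth in these shares was not tested. The higher one was AABR06042582.1, with 8.08 and 17.4 counts, a fold of 2.13 (0.869 to 5.69).

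The 5 lower host genes included Amph, the endocytic protein amphiphysin, with 213 counts in Ctrl_Input and 89.96 in BPA_Input (0.423-fold, 95% exact interval 0.327 to 0.543). Its start peak had fold enrichments of 13.8 and 18.2. Map3k7, the kinase TAK1, had 95.9 and 30.7 counts (0.323-fold, 0.208 to 0.489) and a start peak at 10.3 and 7.80. Exoc7, a subunit of the exocyst, had 43.4 and 8.18 counts (0.186-fold, 0.0755 to 0.4003), and a second row bears its name, so reads may be split between them. Its start peak had 5.14 and 3.84.

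The transcription cofactor Crebzf had 64.5 and 26.8 counts (0.422-fold, 0.259 to 0.671) with a start peak at 5.36 and 6.81, and Clasrp had 51.8 and 22.8 counts (0.442-fold, 0.258 to 0.736) with one at 5.88 and 4.90. Start peaks of these 5 genes thus differed by less than 2-fold, in both directions. Over the 1220 members in genes with at least 10 counts, the log2 ratio of the peak and that of its host gene gave Pearson's r of -0.0031 and a Spearman's rho of -0.024, a description across peaks whose fold enrichment already contains the input.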

How the data were processed

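Tools named per the submitters' processing notes are HISAT2 2.0.4, STAR and cutadapt 1.9.3, without their roles. Not given in the sources used here: the build, the quantifier and the version of the peak caller. Per the file headers, the deposited input tables give an FPKM and an estimated count per gene, and the deposited peak lists, 1 per IP library, give a ratio of IP over input (fold enrichment), a score of -10 × log10 of the p-value and an FDR in percent, which was 100 throughout. Peak names are those of MACS. Deposited starts were taken as counted from 0 and are printed 1 higher.

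A member was paired with the BPA peak of largest overlap; gene spans came from the input table. Log2 ratios of counts used a pseudocount of 1, no scaling beyond that of the deposited counts and a mean of at least 10. Many deposited counts are whole multiples of a constant that differs between the inputs. They may thus have been scaled already, and their totals need not be read depth. At least 2-fold counted as a difference. Exact (Clopper-Pearson) 95% intervals used counts rounded to whole numbers and cover counting error only; reads carried no molecular identifiers. Genes named are the 10 highest scores, 5 highest fold enrichments, 6 highest and 6 lowest ratios at scores of at least 20, up to 3 per gene group, host genes past 2-fold, 3 genes with most members and the 2 peaks on each side of the 10% mark. The members past 2-fold, Mettl14 and the marker genes were added after their values were seen, and a few genes that these rules name are not reported here. Members, lists and rules were chosen with earlier results of these data known. Python 3.11.15, pandas 2.3.3 and scipy 1.17.1 were used, and the search for members was tested on simulated peaks. These lay away from the 10% mark and in genes with 1 row of that name, so the simulation does not bear on peaks near the mark or on repeated names.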

Additional observations from a re-analysis of the deposited data

How the results depend on the processing

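With 1 library per group no replicate could be left out and no p-value was computed. No paired analysis was possible because each group holds 1 sample. The number of members was 414 at a score of at least 100 in both lists, against 1256, and 749 at a score of at least 20 with an FPKM of at least 1, a setting chosen after seeing the data. The median log2 ratio of members was 0.036 when centred on all shared peaks. Members 2-fold higher in BPA_IP numbered 4 at a score of at least 100, 6 at a score of at least 20 with FPKM of at least 1, 4 with fold enrichment + 1, and 123 at 1.5-fold. Members 2-fold lower numbered 2 at a score of at least 13, 1 at 100, 2 at 20 with FPKM of at least 1, 3 with fold enrichment + 1, 9 for all shared peaks within 500 bp of a start, and 45 at 1.5-fold. The counts at 1.5-fold have no share over all shared peaks to be set against. Of the 15 single peaks past 2-fold, 12 stayed so when centred (7 higher and 7 lower in all) and 7 with fold enrichment + 1. Host genes 2-fold higher numbered 0 with a pseudocount of 5, a mean of at least 50 counts or FPKM + 1, and 4 without a filter on counts. Host genes 2-fold lower numbered 12 without that filter, 2 at a mean of at least 50 and 2 with FPKM + 1. Host genes with a shared peak in the last 10% of the locus too made up 3.47% at a score of at least 100 and 13.4% when the last 20% was taken. The cause was not tested where the setting does not itself remove peaks or genes. Shallow genes limit the input ratios, and the ceiling of the score limits the ranking of the strongest peaks.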

Other observations

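The naming rule passed over genes without a proper symbol, and some of these had strong start peaks. The highest fold enrichment of all members was that of AABR06042582.1, 488 in Ctrl_IP and 450.1 in BPA_IP, on 8.08 and 17.4 input counts. AABR06027146.1 had 99.1 and 116 at an FPKM of 106 in Ctrl_Input. RGD1565611 had a fold enrichment of 84.6 in Ctrl_IP and 84.4 in BPA_IP in a peak that began at its locus start, with an input FPKM of 21.8 and 15.6. LOC687994 had 35.1 and 42.6 with scores of 3100 in both lists, on chromosome 10 from 66425460 to 66425736. Of the genes with a proper symbol, Xrra1 had 49.6 and 73.0 at an FPKM of 0.42 in Ctrl_Input, under the minimum of 1 used for naming, so that its ratio rests on few input reads.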
